A study of Mus musculus with 8 samples.

Results

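A set of 10 genes of the Hippo pathway and of the TEAD transcription factors that it controls was followed across the cell types of adult mouse heart: Yap1, Wwtr1, Tead1, Tead3, Tead4, Lats1, Lats2, Vgll4, Amotl1 and Amotl2. They were taken by symbol from the gene list of the count matrices, and all 10 were found among the 32285 genes listed. The RNA was counted in single nuclei of the hearts of adult female and male wild-type mice, either non-transgenic (nTg) or transgenic for constitutive expression of cyclin A2 (Tg), the product of Ccna2, which drives the cell cycle. Of 8 libraries, 5 had a matrix that matched their own barcode list and were kept: Tg male 1, Tg male 2, Tg female 1, Tg female 2 and nTg female 1. The values under the other 3 labels (nTg female 2 and both nTg males) repeated those of a Tg library of the same sex and number and were not used. The strain, the exact age, the promoter of the transgene and the number of animals per library are not given in the sources used here, so the spread between libraries may be technical in part.

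The Ccna2 level went against 2 labels. In cardiomyocyte nuclei it was 444 CPM (counts per 1000000 unique molecular identifiers, UMIs) in the library labelled nTg female 1 and 0.524 CPM in the library labelled Tg female 1, against 827 CPM in the one labelled Tg female 2, and 232 and 143 CPM in the males 1 and 2. Libraries are therefore named by their labels, and no direction is drawn from the genotype label alone. The sex labels were matched by Xist, at 1277 to 1469 CPM in the 3 female libraries and at most 8.18 CPM in the males. The 5 libraries held 25045167 to 38593706 UMIs, and after filtering 5773 to 8817 nuclei of 2079 to 3053 median UMIs each.

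The Hippo pathway is a kinase cascade that restrains growth of organs. The kinases Stk3 and Stk4 with their scaffold Sav1 activate the kinases Lats1 and Lats2, which phosphorylate the coactivators YAP (Yap1) and TAZ (Wwtr1) and keep them out of the nucleus. Unphosphorylated YAP and TAZ enter the nucleus and bind TEAD factors on DNA, where Vgll4 competes with them, while the angiomotin-like proteins Amotl1 and Amotl2 hold YAP at cell junctions. In heart muscle the pathway is known for limiting cardiomyocyte division after birth, and in endothelium for its part in the growth of vessels.

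TEAD factors recognise the letters CATTCC, or GGAATG when read on the other strand, and several genes of the pathway are themselves known as targets of YAP and TEAD. RefSeq promoter windows (GRCm38.p6, 250 bases before to 50 bases after the start of transcription) were found for 8 of the 10 genes, with 12 starts in all. Tead1 and Tead4 were the other genes. Either spelling of the motif was present in windows of 6 of these 8 genes, namely Yap1, Wwtr1, Tead3, Lats2, Vgll4 and Amotl2. Over all 27025 genes of the table the share was 16.6%, and per window it was 14.7% of 32851. The 4 stretches of 60 bases below, with Ccn1 (a classical YAP target) for comparison, show the motif in capitals where it lies before the start and outside annotated exons. All read 5′ to 3′ on the gene's own strand, the minus strand in each case. The Vgll4 stretch lies inside the annotated gene but in none of its exons, and the others lie before their genes.
Yap1 (chr9:8004705-8004764): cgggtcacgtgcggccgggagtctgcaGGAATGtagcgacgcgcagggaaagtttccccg
Wwtr1 (chr3:57576014-57576073): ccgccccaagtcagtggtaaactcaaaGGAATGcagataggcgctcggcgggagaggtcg
Tead3 (chr17:28350955-28351014): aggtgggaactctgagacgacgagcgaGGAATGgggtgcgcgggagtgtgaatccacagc
Vgll4 (chr6:114969253-114969312): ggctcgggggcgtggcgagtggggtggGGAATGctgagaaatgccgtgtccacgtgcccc
Ccn1 (chr3:145650056-145650115): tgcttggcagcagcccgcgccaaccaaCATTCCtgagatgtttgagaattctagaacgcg
The motif lay 141 bases before the start in Yap1, 136 in Wwtr1, 182 in Tead3, 82 in Vgll4 and 103 in Ccn1. A match of 6 letters describes the window and does not show that a factor binds there.

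**Figure D1:**
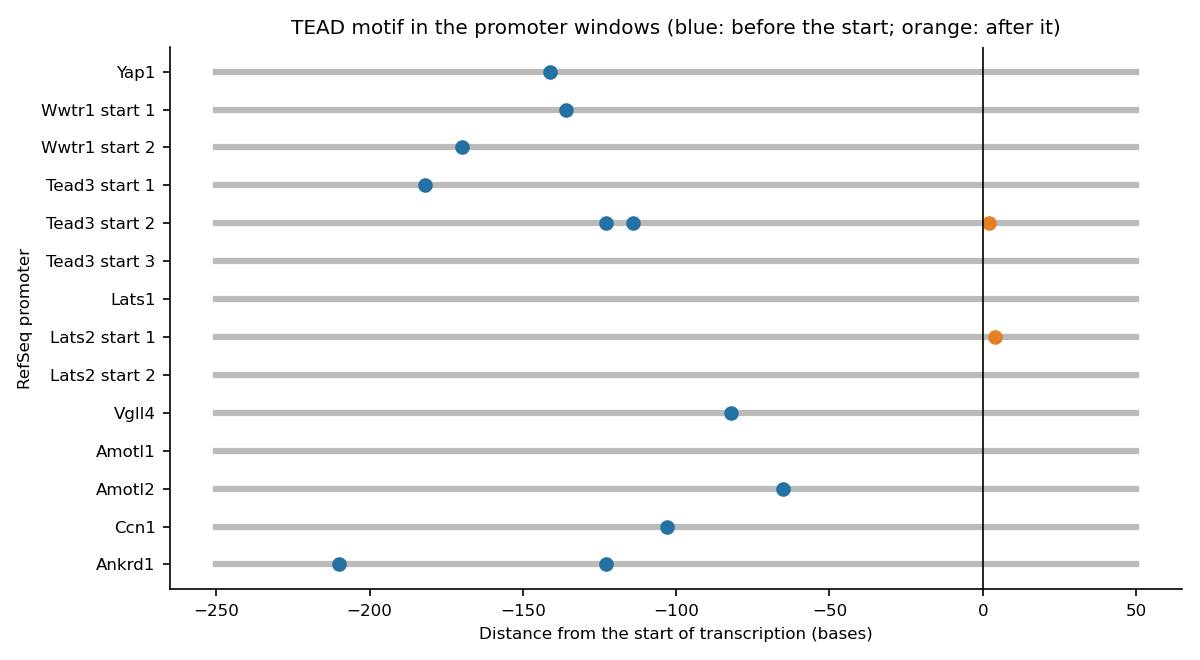
Positions of the TEAD motif in the RefSeq promoter windows of the genes with an entry, and of the YAP targets Ccn1 and Ankrd1; the x axis is the distance from the start of transcription in bases, each row is 1 start, and points mark the first base of a match on either strand. The windows of Lats1 and Amotl1 and 1 start each of Tead3 and Lats2 hold no match, and the match in the other Lats2 window lies after the start.

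Nuclei were clustered without the 10 genes and named from marker lists. Of 34224 nuclei, 33475 fell into 8 types with at least 50 nuclei in every library: cardiomyocyte-like (6556), fibroblast-like (12610), endothelial-like (7003), endocardial-like (1340), lymphatic endothelial-like (760), pericyte-like (2179), smooth muscle-like (514) and macrophage-like (2513), called by these names without the ending from here on. Orders and leading types are given among these 8. Mesothelial-like nuclei, 105 in all and not tested, had a mean above the highest of the 8 for Yap1, Tead1, Lats1, Lats2, Vgll4 and Amotl2. UMIs were summed per library and type, and levels are given as CPM of that sum with the SD over the 5 libraries. Counts of whole genes in nuclei depend on gene length and introns, so levels are compared between types and not between genes. A lower CPM can stand for less RNA of the gene or more RNA of others. Each type was then tested against the mean of the other 7 on the log2 scale, with edgeR's quasi-likelihood test, the library as a block and Benjamini-Hochberg adjustment over 13960 genes. That test uses TMM scaling, which centres the genes of each sum. Without it the median gene was -0.58 in cardiomyocytes and between -0.21 and 0.16 in the other types (log2 scale), so a log2 difference in cardiomyocytes is relative to this shift and can be positive where the CPM is not.

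**Figure D2:**
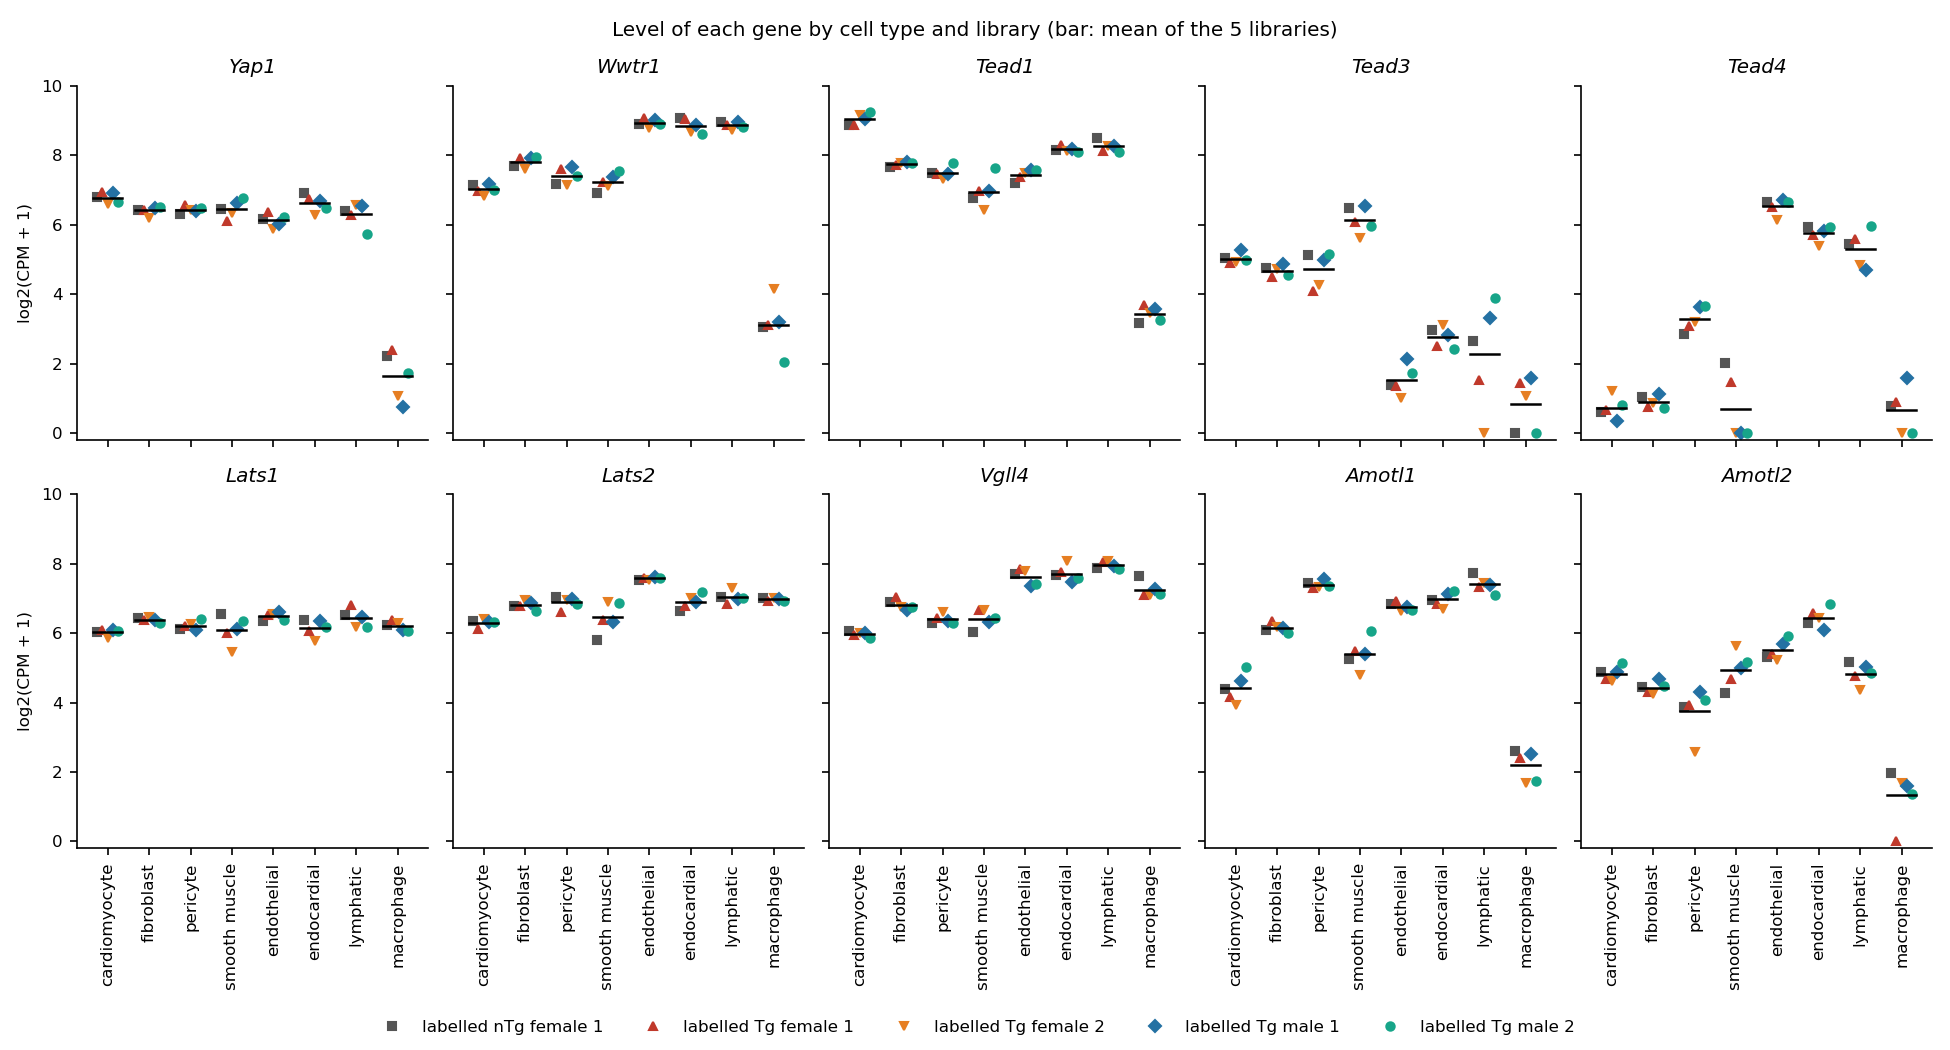
Level of each gene as log2(CPM + 1) (y axis) in the 8 cell types (x axis), with 1 point per library and a bar at the mean of the 5. In macrophages 7 genes lie far below their highest type while Lats1, Lats2 and Vgll4 do not, and Tead4 is low in cardiomyocytes, fibroblasts and smooth muscle as well.

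The coactivators differed in where they were high. Yap1 (ENSMUSG00000053110; chr9:7931999-8004596, minus strand) was found in 7 types and was low in macrophages. In cardiomyocytes it measured 119, 99.8, 123, 95.8 and 110.4 CPM in the libraries labelled Tg male 1, Tg male 2, Tg female 1, Tg female 2 and nTg female 1, an order kept in all such lists. The mean was 109.5 ± 11.7 CPM (SD, n = 5, as for all levels by type). The next types were endocardial (98.6 ± 16.4 CPM), smooth muscle (88.2 ± 15.7 CPM), pericyte (86.1 ± 5.77 CPM), fibroblast (84.8 ± 7.17 CPM), lymphatic endothelial (79.9 ± 16.8 CPM) and endothelial (69.4 ± 9.08 CPM). Every neighbour in this order overlapped with the next over the libraries. Macrophages stood apart at 0.675, 2.33, 4.29, 1.117 and 3.65 CPM, which rests on 1 to 5 UMIs per library. In the test Yap1 was higher in cardiomyocytes, by 1.71 (SE 0.08, adjusted p = 6.3e-22), and lower in macrophages, at -5.23 (SE 0.20, adjusted p = 7.3e-25). Yap1 shares 11167 bases with Gm20416 on the opposite strand, and since the counting's use of strand is not stated, reads there cannot be told apart.

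Wwtr1 (ENSMUSG00000027803; chr3:57455649-57575910, minus strand), which encodes TAZ, was highest in the 3 endothelial types. It measured 517, 478, 539.9, 439 and 481 CPM in endothelial nuclei, with means of 491 ± 38.9 CPM, 469 ± 31.5 CPM in lymphatic endothelial and 467 ± 68.2 CPM in endocardial nuclei. These 3 did not differ beyond their spread. Below them, with no overlap, came fibroblasts (226 ± 23.4 CPM), then pericytes (170.0 ± 28.4 CPM), smooth muscle (152 ± 25.3 CPM) and cardiomyocytes (129.6 ± 12.8 CPM), each overlapping with the next. In macrophages it was 8.11, 3.11, 7.71, 16.8 and 7.30 CPM. The difference from the other types was 1.69 (SE 0.08, adjusted p = 3.3e-22) in endothelial, 1.56 (SE 0.08, adjusted p = 1.6e-19) in endocardial and 1.49 (SE 0.09, adjusted p = 1.1e-17) in lymphatic endothelial nuclei. In cardiomyocytes Wwtr1 did not pass the test, at 0.15 (SE 0.08, adjusted p = 0.088), and with library totals it was -0.43 and past the threshold, so its direction there depends on the scaling. Yap1 and Wwtr1 had different leading types, cardiomyocytes for Yap1 and endothelium for Wwtr1, although the difference in pattern was not tested.

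The 3 TEAD factors, the DNA-binding partners of YAP and TAZ, each led in another type. Tead1 (ENSMUSG00000055320; chr7:112679318-112906807, plus strand) was highest of the 8 types in cardiomyocytes, at 524, 604, 473, 577 and 469.7 CPM (529 ± 60.3 CPM). Every library exceeded every library of the next type, lymphatic endothelial, at 307 ± 35.7 CPM. Endocardial nuclei followed at 288 ± 17.1 CPM, then fibroblasts at 215 ± 8.59 CPM, pericytes at 181 ± 22.2 CPM, endothelial nuclei at 174 ± 18.4 CPM and smooth muscle at 128 ± 41.9 CPM. From fibroblasts to smooth muscle the neighbours overlapped. Macrophages had 10.8, 8.55, 12, 10.1 and 8.03 CPM. It shares 764 bases with 2310014F06Rik on the opposite strand. The difference was 2.57 (SE 0.06, adjusted p = 1.3e-31) in cardiomyocytes and -4.66 (SE 0.13, adjusted p = 7.2e-29) in macrophages. Nuclei with at least 1000 UMIs were thinned to 1000 UMIs, and shallower ones were left out. Of these, 35.9 to 42.2% of cardiomyocyte nuclei per library held a Tead1 UMI, against 13.6 to 16.2% of endothelial and 0.591 to 0.947% of macrophage nuclei. Unthinned and over all nuclei of the type, the shares were 84.8 to 95.3%, 23.2 to 29.6% and 1.99 to 2.41%, at median depths of 5752 to 8021, 1555.5 to 2202.5 and 1784 to 2744.5 UMIs.

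Tead3 (ENSMUSG00000002249; chr17:28331671-28350817, minus strand) was highest in smooth muscle, at 91.8, 61.8, 66.4, 48.0 and 89.1 CPM (71.4 ± 18.7 CPM), from 9 to 38 UMIs per library, above every library of the next type. Cardiomyocytes (31.6 ± 3.36 CPM), pericytes (26.8 ± 9.08 CPM) and fibroblasts (24.7 ± 2.58 CPM) overlapped in that order. The endothelial types were lower again: lymphatic endothelial nuclei had 6.02 ± 5.57 CPM, endocardial 5.93 ± 1.44 CPM and endothelial 1.97 ± 0.908 CPM. The difference from the other types was 3.37 (SE 0.20, adjusted p = 1e-17) in smooth muscle, 2.47 (SE 0.12, adjusted p = 1.8e-21) in cardiomyocytes and -2.68 (SE 0.27, adjusted p = 2.2e-11) in endothelial nuclei. Tead4 (ENSMUSG00000030353; chr6:128224288-128300823, minus strand) had the endothelial types at the top, where Tead3 was low. It measured 103, 99.5, 90.6, 69.5 and 99.7 CPM in endothelial nuclei (92.5 ± 13.7 CPM), above every library of endocardial nuclei (53.6 ± 7.84 CPM), which overlapped with lymphatic endothelial nuclei (40.6 ± 14.8 CPM). Pericytes followed at 8.97 ± 2.36 CPM. In cardiomyocytes Tead4 was at 0.267, 0.742, 0.599, 1.301 and 0.520 CPM, from 3 to 8 UMIs per library, and fibroblasts, smooth muscle and macrophages had means under 1 CPM. The difference was 4.52 (SE 0.12, adjusted p = 1.7e-29) in endothelial and -2.99 (SE 0.42, adjusted p = 2.8e-08) in cardiomyocyte nuclei.

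Over all 8 types the kinases that act on YAP and TAZ varied least, by 1.38-fold from the lowest to the highest mean for Lats1 and 2.43-fold for Lats2, against 3.99-fold for Vgll4 and 45.4-fold or more for the other 7. For these 7 the lowest mean was that of macrophages, or of cardiomyocytes for Tead4, from few UMIs. Outside macrophages Yap1 ran only from 69.4 to 109.5 CPM, a narrower range than that of Lats2 (78.2 to 189.8 CPM). Lats1 (ENSMUSG00000040021; chr10:7681214-7716460, plus strand) ran from 64.1 ± 4.18 CPM in cardiomyocytes to 88.8 ± 7.38 CPM in endothelial nuclei, and each type overlapped with the next in order. It measured 66.5, 66.0, 66.5, 56.8 and 64.7 CPM in cardiomyocytes and 67.5, 66.1, 82.3, 77.1 and 74.4 CPM in macrophages. It passed the test in cardiomyocytes, at 0.31 (SE 0.07, adjusted p = 0.00021), but with library totals in place of TMM the value was -0.28, so its direction there depends on the scaling. It also passed in endothelial nuclei, at 0.18 (SE 0.08, adjusted p = 0.043), but this call held in only 4 of 13 other settings and was lost with DESeq2 and with RLE scaling. Lats2 (ENSMUSG00000021959; chr14:57689662-57758388, minus strand) was highest of the 8 types in endothelial nuclei, at 194, 193, 193, 185 and 184 CPM (189.8 ± 4.89 CPM), with no overlap with lymphatic endothelial nuclei (131 ± 16.2 CPM). Macrophages had 126, 121, 121, 127 and 127 CPM, a level within the range of lymphatic endothelial, endocardial (119 ± 18.1 CPM) and pericyte nuclei (118 ± 13.2 CPM). Fibroblasts had 111 ± 9.20 CPM, smooth muscle 89.8 ± 26.6 CPM and cardiomyocytes 78.2 ± 5.50 CPM. Lats2 was higher in endothelial nuclei by 0.74 (SE 0.07, adjusted p = 1.1e-12) and lower in smooth muscle, at -0.35 (SE 0.11, adjusted p = 0.012), and fibroblasts, at -0.22 (SE 0.07, adjusted p = 0.0068). The calls in smooth muscle and fibroblasts held in 9 and 10 of 14 other settings. In cardiomyocytes, which had the lowest mean, Lats2 did not pass, at -0.06 (SE 0.07, adjusted p = 0.40). There it was -0.13 with DESeq2 and -0.65 with library totals, both past the threshold, so that result depends on the tool and the scaling. Lats2 shares 56442 of its 68727 bases with Gm49361 on the same strand, so reads of these cannot be told apart. Gm49361 is annotated as protein-coding and is not in the gene list of the matrices.

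Vgll4 (ENSMUSG00000030315; chr6:114860628-114969994, minus strand), the competitor of YAP for TEAD, was high in the endothelial types and low in muscle. Lymphatic endothelial nuclei had 246, 227, 262, 271 and 232 CPM (248 ± 18.9 CPM). Endocardial (211 ± 36.2 CPM), endothelial (198 ± 31.1 CPM) and macrophage nuclei (152 ± 27.3 CPM) followed with overlap, then, apart from them, fibroblasts (113 ± 12.2 CPM), smooth muscle (85.7 ± 15.3 CPM) and pericytes (83.6 ± 8.36 CPM). Cardiomyocytes were lowest, at 63.6, 57.1, 60.02, 63.7 and 66.1 CPM (62.1 ± 3.56 CPM), below every library of pericytes. The test gave 0.88 (SE 0.09, adjusted p = 3.1e-11) in lymphatic endothelial, -0.62 (SE 0.08, adjusted p = 1.7e-09) in cardiomyocyte and -0.80 (SE 0.09, adjusted p = 9.2e-10) in pericyte nuclei. Vgll4 was the only one of the 10 genes that was higher in macrophages, at 0.19 (SE 0.08, adjusted p = 0.03). With a stricter filter on nuclei, which left 8 macrophage nuclei in the library labelled nTg female 1, that value turned to -0.12. The macrophage call held in 7 of 13 other settings. Among those that lost it was the fit without the library labelled nTg female 1, which had 199 CPM against 135 to 152 CPM in the others.

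The angiomotin-like genes had different leading types. Amotl1 (ENSMUSG00000013076; chr9:14541966-14645056, minus strand) was highest in lymphatic endothelial nuclei (167, 136, 160.1, 173 and 213 CPM) and pericytes (187, 162, 157, 161 and 174 CPM), which overlapped at 169.8 ± 28.2 CPM and 168 ± 12.5 CPM. Below pericytes, with no overlap, endocardial nuclei had 126 ± 18.3 CPM, then endothelial 108 ± 8.79 CPM, fibroblasts 70.5 ± 5.999 CPM, smooth muscle 42.7 ± 14.4 CPM and cardiomyocytes 21.2 ± 6.87 CPM. It shares 1285 bases with Gm34263 on the opposite strand. The difference was 1.74 (SE 0.10, adjusted p = 1e-17) in pericytes and -1.01 (SE 0.11, adjusted p = 2.3e-10) in cardiomyocytes. Amotl2 (ENSMUSG00000032531; chr9:102716672-102733418, plus strand) was highest of the 8 types in endocardial nuclei, at 66.5, 114, 94.9, 85.1 and 77.3 CPM (87.5 ± 18.0 CPM), above every library of endothelial nuclei (45.0 ± 9.34 CPM). Smooth muscle (31.3 ± 11.2 CPM), lymphatic endothelial (28.0 ± 5.69 CPM), cardiomyocyte (27.8 ± 4.13 CPM), fibroblast (20.7 ± 2.68 CPM) and pericyte nuclei (13.5 ± 5.18 CPM) each overlapped with the next. The difference was 2.18 (SE 0.13, adjusted p = 4.4e-18) in endocardial nuclei and -0.77 (SE 0.18, adjusted p = 0.00058) in pericytes, where Amotl1 was high.

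**Figure D3:**
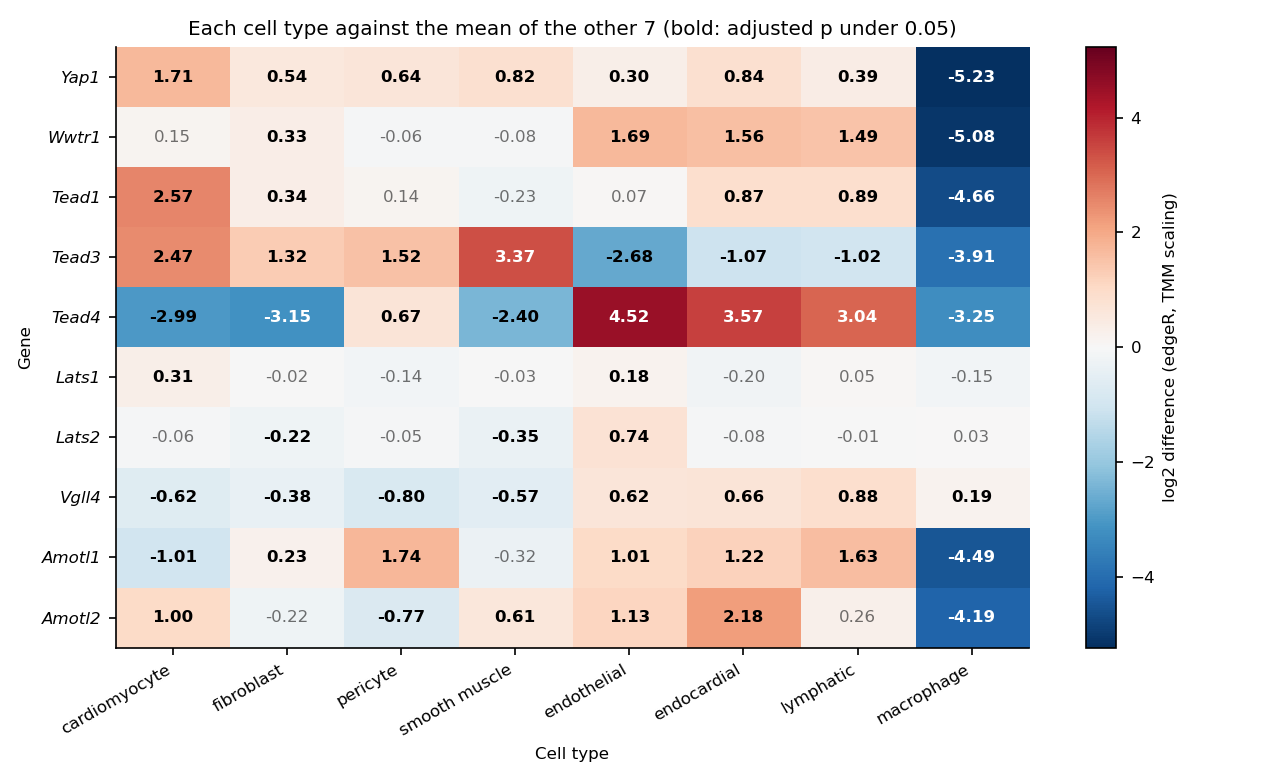
The log2 difference of each gene (rows) in each cell type (columns) from the mean of the other 7 types, from edgeR with TMM scaling; bold values had an adjusted p under 0.05, and colour runs from blue (lower) to red (higher). Macrophages are blue for 8 genes, of which Lats1 did not pass the threshold, Tead3 and Tead4 take opposite signs in most types, and the positive value of Lats1 in cardiomyocytes turns negative with library totals.

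Over the 80 pairs of gene and type, 60 passed the threshold of 0.05, 39 of them higher and 21 lower. In macrophages 1 gene was higher (background 31.3% of all genes tested) and 7 were lower (background 30.7%). Of these, Tead4 turned to 0.088 with doublets kept, and the higher gene, Vgll4, turned with the stricter filter as given above. In endothelial nuclei 8 were higher (background 30.3%) and 1 was lower (background 26.1%), and in endocardial nuclei 7 were higher (background 22.0%) and 1 lower (background 15.5%). Among the 8 in endothelial nuclei, the call of Lats1 held in only 4 of 13 other settings. In lymphatic endothelial nuclei 6 were higher (background 18.9%) and 1 lower (background 17.7%). The lower gene, Tead3, held in 6 of 12 other settings and was lost with DESeq2, and Yap1, among the higher, held in 7 of 13. The counts of the other types lay closer to their backgrounds. They were 5 higher and 3 lower in cardiomyocytes (backgrounds 41.1% and 36.1%), 5 and 3 in fibroblasts (29.8% and 25.2%), 4 and 2 in pericytes (22.1% and 23.3%), and 3 and 3 in smooth muscle (18.7% and 16.4%). Among the higher calls here, Amotl2 in smooth muscle held in only 4 of 12 other settings. Tead4 in pericytes held in 6 of 12 and Amotl1 in fibroblasts in 6 of 13. The median log2 difference of the 10 genes was -4.05 in macrophages, 0.86 in endocardial and 0.68 in endothelial nuclei, against -0.05, -0.03 and -0.0030 over all genes tested.

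Because 7 genes were low in macrophages, the mean of the other types was pulled down for every type but that one. With macrophages left out, chosen after the data were seen, Yap1 stayed higher in cardiomyocytes (0.95) but was lower in fibroblasts (-0.22), endothelial (-0.48) and lymphatic endothelial nuclei (-0.36). In fibroblasts Wwtr1, Tead1 and Amotl1 turned to -0.41, -0.34 and -0.43, and Wwtr1 was lower in cardiomyocytes (-0.61). Tead1 and Tead3 in cardiomyocytes (1.92 and 1.92), Tead4 and Wwtr1 in endothelial nuclei (4.12 and 0.96), Amotl1 in pericytes (1.14) and Amotl2 in endocardial nuclei (1.61) remained higher and past the threshold. Markers of other cell types were present in macrophage nuclei too, and their part in the low levels was not tested. The summed level of the 10 cardiomyocyte markers in macrophages was 3.46% of that in cardiomyocytes, with all 10 above 0, and that of the fibroblast markers 3.24% of that in fibroblasts. Macrophage levels of Yap1, Wwtr1, Tead1, Tead3, Tead4, Amotl1 and Amotl2 were 2.20%, 1.75%, 1.87%, 1.36%, 0.781%, 2.20% and 2.00% of the level in their highest type. Those of Lats1, Lats2 and Vgll4 were 82.8%, 65.6% and 61.4%.

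Within types the genes also varied between clusters, described here with no test. Cardiomyocytes formed 5 clusters. In the cluster of 121 nuclei led by Cntn2 (contactin 2, known from the cardiac conduction system), Fgf12 and Cpne5, Yap1 was 222 ± 31.9 CPM (SD over the 3 libraries with enough nuclei, range 199.8 to 259) and Tead1 325 ± 73.5 CPM. The other 4 clusters had means of 100.1 to 121 CPM for Yap1 and 472 to 531 CPM for Tead1. The Cntn2 cluster had the highest Yap1 and the lowest Tead1 of the cardiomyocyte clusters, from 128 and 184 UMIs. Endocardial nuclei formed 2 clusters, and Amotl2 was 107 ± 19.4 CPM in the one led by Nrg1, Npr3 and Smoc1 and 44.9 ± 27.6 CPM in the one led by Hapln1 and Wnt9b. Wwtr1 went the other way, at 401 ± 43.3 CPM and 646 ± 168 CPM. Among endothelial clusters Tead4 ran from 75.6 to 119 CPM. Among the 6 fibroblast clusters Amotl2 ran from 12.7 CPM in the cluster led by Gfpt2, Cd248 and Duox1 to 31.8 CPM.

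The rest of the pathway was read from a list of 43 genes, made of upstream kinases and scaffolds, other TEAD partners and reported YAP and TAZ targets. Of these 38 passed the filter on low counts. The numbers higher and lower are given with the shares of all genes higher and lower in parentheses. They were 15 and 17 in cardiomyocyte (41.1% and 36.1%), 13 and 12 in fibroblast (29.8% and 25.2%), 15 and 13 in endothelial (30.3% and 26.1%) and 20 and 6 in endocardial (22.0% and 15.5%) nuclei. They were 12 and 9 in lymphatic endothelial (18.9% and 17.7%), 17 and 13 in pericyte (22.1% and 23.3%), 16 and 9 in smooth muscle (18.7% and 16.4%) and 9 and 22 in macrophage (31.3% and 30.7%) nuclei. In cardiomyocytes the counts of 38 lay close to the shares of all genes. Of the 16 targets tested 8 were higher and 7 lower in cardiomyocytes, where 41.1% and 36.1% of all genes were. Ankrd1, a muscle stress-response gene, was 450.4 ± 217 CPM there, a difference of 4.23 (SE 0.10, adjusted p = 1.2e-32), and F3 (tissue factor) 44.7 ± 5.88 CPM, a difference of 4.60 (SE 0.16, adjusted p = 3e-26). Axl and Myof were lower, at -3.79 (SE 0.21, adjusted p = 1.8e-19) and -5.47 (SE 0.28, adjusted p = 1.4e-20). In endothelial nuclei 4 targets were higher and 8 lower (all genes 30.3% and 26.1%), with Igfbp3 at 3.86 (SE 0.20, adjusted p = 3.4e-20) and Ccn2 at -1.84 (SE 0.25, adjusted p = 2.7e-08). In smooth muscle 9 were higher and 4 lower (all genes 18.7% and 16.4%), and Ccn1, a secreted matrix protein, reached 193 ± 70.2 CPM, a difference of 3.36 (SE 0.19, adjusted p = 4e-18). In endocardial nuclei 9 were higher and 3 lower (all genes 22.0% and 15.5%), and Ccn2 was 223 ± 167 CPM, a mean with a wide spread between libraries.

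Other TEAD partners and upstream genes also had leading types. Log2 differences are given here with their standard error, and each had an adjusted p of 6.3e-16 or lower (edgeR). Tead2, another TEAD gene, was higher in endothelial nuclei (log2 difference 1.86 ± 0.13) and lower in cardiomyocytes (log2 difference -5.70 ± 0.25). Vgll3, a TEAD cofactor, was higher in fibroblasts, at 70.9 ± 21.0 CPM (log2 difference 6.09 ± 0.16), and in smooth muscle (log2 difference 5.39 ± 0.34). Ptpn14, a phosphatase that binds YAP, was higher in endocardial (log2 difference 3.48 ± 0.08) and lymphatic endothelial nuclei (log2 difference 3.15 ± 0.09) and lower in macrophages (log2 difference -4.76 ± 0.19). The atypical cadherins Fat4 and Dchs1 were higher in endothelial nuclei (log2 differences 4.02 ± 0.12 and 2.68 ± 0.17). In pericytes the LIM proteins Ajuba and Limd1, which bind Lats kinases, were higher (log2 differences 4.03 ± 0.19 and 2.81 ± 0.06). In macrophages Stk4, Mob1a and Taok3 of the upstream cascade were higher (log2 differences 2.01 ± 0.08, 1.55 ± 0.09 and 2.52 ± 0.07), while Yap1, Wwtr1, Tead1, Tead3 and Tead4 were lower.

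The genes whose levels were most like each of the 10 were found by Pearson's r of log2(CPM + 1) over the 40 sums, among 13869 genes with at least 10 CPM in a type. The sums share libraries and depths, so r only describes the pattern. They include the macrophage sums, where Yap1, Wwtr1, Tead1 and Amotl2 were far below their highest type and Lats1 was not. How r stands without macrophages was not tested. The leading genes were Nedd4 (0.963), Gm20416 (0.955) and Cuedc1 (0.954) for Yap1, the second of which overlaps it, and Myo6 (0.983), Tjp1 (0.973) and Nckap1 (0.954) for Wwtr1. For Tead1 they were Cep126 (0.933), Yap1 (0.928) and Nedd4 (0.906), for Tead3 Cacna2d1 (0.900), Synpo2 (0.894) and Gm43000 (0.881) and for Tead4 Cavin2 (0.954), Gimap1 (0.953) and Adgrf5 (0.937). For Lats1 they were Kmt2c (0.728), Slc25a30 (0.719) and Kdm4c (0.716) and for Lats2 Ly6c1 (0.859), Tlr3 (0.855) and Rassf1 (0.851). For Vgll4 they were Piezo1 (0.934), Rab11a (0.928) and Sema6a (0.927), for Amotl1 Tspan12 (0.944), Zfp532 (0.940) and Cped1 (0.934) and for Amotl2 Nfib (0.882), Tjp1 (0.876) and Wwtr1 (0.875). Yap1 was the second gene for Tead1, Wwtr1 the third for Amotl2, and Lats1 had the weakest match of the 10.

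The title of the study links a cardiomyocyte population to CCNA2, and cardiomyocyte nuclei within a library could be split by Ccna2 itself. Nuclei with at least 10 Ccna2 UMIs were set against those with 0 in the 4 libraries with at least 20 of each: 70, 36, 114 and 109 against 1217, 1130, 801 and 993 nuclei in those labelled Tg male 1, Tg male 2, Tg female 2 and nTg female 1. The library labelled Tg female 1 had none with 10 or more. None of the 9 genes tested passed the threshold (edgeR with the library as a block; background 0.261% of 11879 genes in either direction), while 2 had an unadjusted p under 0.05, against 5.88% of all genes, and DESeq2 called 0. The lowest p was that of Vgll4. It measured 65.0, 58.0, 65.5 and 68.3 CPM in nuclei without Ccna2 and 43.8, 38.7, 53.5 and 42.6 CPM in nuclei with it. Vgll4 was thus lower in 4 of 4 libraries and without overlap between the classes, a pattern whose share over all genes is not given here. The means were 64.2 ± 4.37 and 44.6 ± 6.31 CPM (SD, n = 4), and the log2 difference was -0.51 (SE 0.14, adjusted p = 0.17). The class with Ccna2 rests on 16 to 48 Vgll4 UMIs per library, and in the library labelled Tg male 2 the 95% Poisson interval was 22.1 to 62.8 CPM. Over 15 other settings the log2 difference ran from -0.78 to -0.38, with an adjusted p of 0.035 without a filter on low counts and above the threshold in the others.

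Lats1, the other gene with an unadjusted p under 0.05, was 67.8, 65.7, 59.7 and 64.3 CPM without and 48.4, 60.4, 39.0 and 62.3 CPM with Ccna2, lower in 4 of 4 libraries, with a log2 difference of -0.29 (SE 0.14, adjusted p = 0.82). Tead3 was 37.9, 31.1, 28.7 and 33.4 CPM without and 31.3, 24.2, 26.8 and 20.8 CPM with Ccna2, also lower in 4 of 4, at -0.35 (SE 0.18, adjusted p = 0.87). Neither difference passed the test, and the share of all genes lower in 4 of 4 libraries is not given here. Tead1, the abundant factor of cardiomyocytes, was 524, 604, 587 and 471 CPM without and 519, 582, 511 and 467 CPM with Ccna2, at -0.06 (SE 0.06, adjusted p = 0.98). Yap1 measured 117, 99.0, 96.3 and 112 and 139, 109, 94.8 and 101 CPM, at 0.05 (SE 0.10, adjusted p = 0.99), and Wwtr1 144, 127, 116 and 141 and 139, 143, 95.9 and 121 CPM, at -0.11 (SE 0.09, adjusted p = 0.97). Lats2, Amotl1 and Amotl2 had log2 differences of -0.02, -0.01 and -0.12. Tead4 had 0 to 3 UMIs in the class with Ccna2 and was not tested. The median of the 9 was -0.11 and that of all genes tested 0.0034. Of the 29 other pathway genes tested 0 passed with edgeR and 0 with DESeq2, and 3 had an unadjusted p under 0.05 with edgeR. The classes differed in depth and make-up: the median nucleus had 7957, 8753, 6826.5 and 8088 UMIs with Ccna2 and 7755, 7986.5, 5686 and 7708 without. In the library labelled Tg female 2 the cluster led by Nppb and Ankrd1 held 93.0% of the nuclei with Ccna2 and 75.8% of those without. The summed fibroblast markers were 87.5, 157, 263 and 135 CPM with and 86.7, 72.1, 291 and 123 CPM without Ccna2. In nuclei of 5000 to 20000 UMIs alone the log2 differences of Vgll4, Lats1 and Tead3 were -0.47, -0.27 and -0.30, close to those above. The part of the clusters and markers was not tested.

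**Figure D4:**
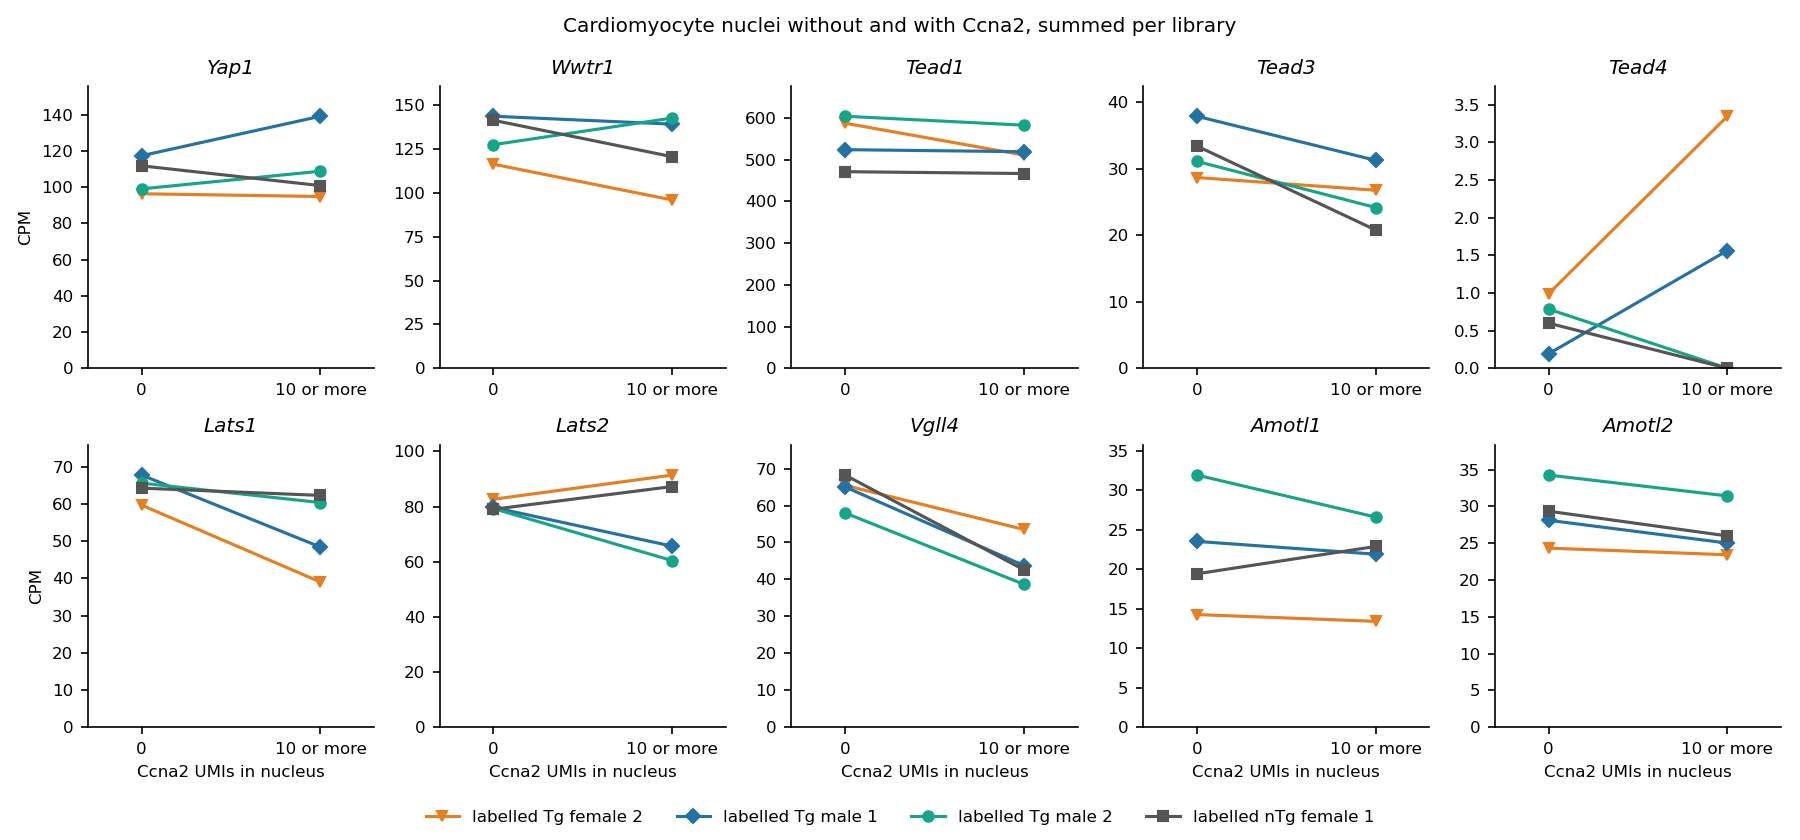
Level in CPM (y axis, from 0) in cardiomyocyte nuclei with 0 and with at least 10 Ccna2 UMIs (x axis), summed per library; each line joins the 2 classes of 1 library. Vgll4, Lats1, Tead3, Tead1 and Amotl2 slope down in all 4 lines by different amounts, Tead4 rests on at most 8 UMIs, and no gene passed the test. The share of all genes that slope down in all 4 lines is not given here.

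Female and male hearts were compared within each type in the 4 libraries labelled Tg, 2 of each sex. The female library labelled Tg female 1 is the one whose Ccna2 level goes against its label, so the female arm may mix genotypes. Of 80 pairs of gene and type 67 passed the filter on low counts, and 0 passed the threshold with edgeR. DESeq2 called 0 as well, and 4 pairs had an unadjusted p under 0.05 with edgeR, a share within that of all genes, which was 4.67 to 9.94% by type. In simulated counts of cardiomyocytes the edgeR test recovered 15.6% of 2-fold changes by sex, so 0 calls does not show equal levels. The background of genes called was 0.0265%, 0.422%, 0.178%, 0.226%, 0.270%, 0.156%, 0.140% and 0.302% in cardiomyocyte, fibroblast, endothelial, endocardial, lymphatic endothelial, pericyte, smooth muscle and macrophage nuclei. Estimates lay below 0 in 48 of the 67 pairs, that is lower in females, and ran from -0.95 to 0.39 on the log2 scale. The median over all genes tested lay between -0.0011 and 0.023 by type. All pairs share the same 4 libraries, so they are not independent, and their common direction was not tested. Amotl1 in cardiomyocytes was 16.7 and 14.1 CPM in the female libraries and 23.7 and 31.7 CPM in the male libraries, and 19.96 CPM in the library labelled nTg female 1. The sexes did not overlap, as can often happen by chance with 2 libraries of each sex. The log2 difference was -0.87 (SE 0.23, adjusted p = 0.47). The cardiomyocyte clusters differed between these libraries: that led by Nppb and Ankrd1 held 66.7% and 77.5% of cardiomyocytes in the females and 2.52% and 1.44% in the males, while that led by Ptgds held 2.12%, 1.05%, 58.7% and 65.0%. The library labelled nTg female 1 was nearer to the males, with 6.98% and 61.1%, and the part of this split in the difference was not tested.

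In the other types the pairs with an unadjusted p under 0.05 were 3, 2 of them in endothelial nuclei and 1 in pericytes, where 9.04% and 6.69% of all genes had such a p. Their values follow as a description. Vgll4 in endothelial nuclei was 231 and 222 CPM in the female libraries and 162 and 169 CPM in the male libraries, a difference of 0.39 (SE 0.16, adjusted p = 0.51). Amotl2 in endothelial nuclei was 40.8 and 36.5 CPM in the female libraries and 50.04 and 58.9 CPM in the male libraries, a difference of -0.55 (SE 0.19, adjusted p = 0.4). Tead3 in pericytes was 15.9 and 18.1 CPM in the female libraries and 30.8 and 34.7 CPM in the male libraries, from 11 to 41 UMIs per library, a difference of -0.95 (SE 0.35, adjusted p = 0.58). In each the sexes did not overlap, and the library labelled nTg female 1 was at 208, 38.7 and 34.3 CPM, near the males in the last case. As for Amotl1 above, the share of all genes without overlap is not given here, so the separation is only a description. Yap1 in cardiomyocytes overlapped between the sexes, with 109 ± 19.2 CPM in females and 109 ± 13.4 CPM in males (SD, n = 2 libraries each), at -0.03 (SE 0.20, adjusted p = 1), and Tead1 was at -0.15 (SE 0.20, adjusted p = 0.96). Tead4 in endothelial nuclei was 90.6 and 69.5 CPM in the female libraries and 103 and 99.5 CPM in the male libraries, at -0.39 (SE 0.18, adjusted p = 0.59). Without the library labelled Tg female 1 this became -0.63 with an adjusted p of 0.036, the only call among the settings tried, and it then rests on 1 female library that is assumed to vary like the males.

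**Figure D5:**
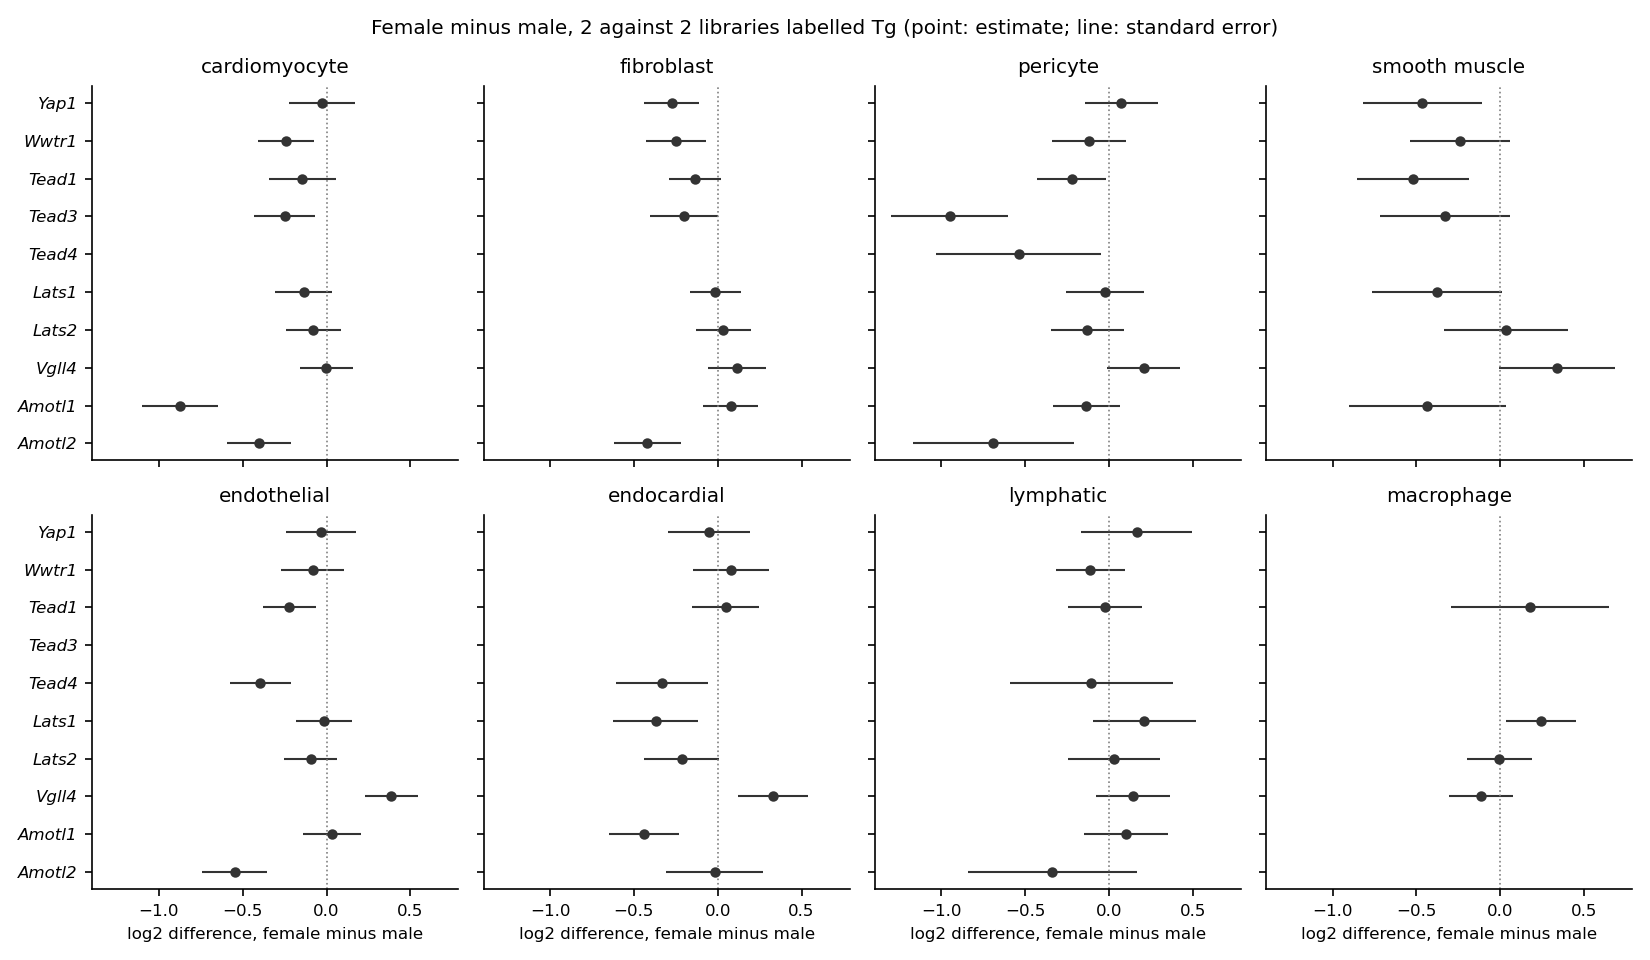
The log2 difference of each gene (rows), female minus male, in each of 8 cell types (panels), as the edgeR estimate (point) and its standard error (line) from 2 against 2 libraries labelled Tg. Genes left out by the filter on low counts have no point, and no adjusted p was under 0.05.

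The 1 library labelled nTg was set beside the 4 labelled Tg without a test, and since Ccna2 goes against its label and that of Tg female 1, the values say nothing of the transgene. Pairs of gene and type were read where the mean of the Tg libraries or the nTg library reached 10 CPM, which held for 67 of 80. None of these was at least 2-fold from the Tg mean on the log2(CPM + 1) scale and outside the Tg range (backgrounds of 0.248% higher and 0.598% lower in cardiomyocytes). The backgrounds in fibroblast, endothelial, endocardial, lymphatic endothelial, pericyte, smooth muscle and macrophage nuclei were 0.209%, 0.220%, 1.58%, 4.50%, 1.21%, 5.30% and 0.717% higher and 0.304%, 0.550%, 2.81%, 5.48%, 2.04%, 8.10% and 1.50% lower. In cardiomyocytes Tead1 was at 469.7 against 473 to 604 CPM, and Vgll4 at 66.1 against 57.1 to 63.7 CPM. Among the pairs above 10 CPM the farthest values were those of smooth muscle, where Amotl2 was 18.4 against 24.4 to 48.0 CPM from 6 UMIs, and Lats2 55.3 against 78.2 to 117 CPM from 18 UMIs. Below 10 CPM, Tead4 in smooth muscle was 3.07 CPM from 1 UMI against 0 to 1.75 CPM, and Amotl2 in macrophages 2.92 against 0 to 2.23 CPM, counts too low to compare.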

How the data were processed

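The authors deposited UMI counts per gene and barcode as whole numbers with no normalization, made with Cell Ranger 7.0.0 per the file headers; the build is mm10 per the submitters' processing notes, and the counting of introns and use of strand are not given in the sources used here. Barcodes with at least 200 genes and under 5% mitochondrial UMIs were kept, and doublets called by scrublet (scanpy 1.11.5) were removed, 7.63 to 11.4% per library; in the library labelled Tg female 2 scrublet's own threshold called 0%, so the median threshold of the others was used. Libraries shared 14 to 28 barcodes by pair.

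Nuclei were clustered on 2000 variable genes and 30 principal components centred per library (Leiden, resolution 1), without the 10 genes, the pathway list, Ccna2 and sex-linked genes. A cluster was named from at least 3 raised markers and a lead of at least 1 (log2) over the next type; these naming details and the rule that left a cluster led by cell-cycle genes unnamed were set after the clusters were seen. 2 of 30 clusters stayed unnamed. Sums per library and type were tested with edgeR 4.0.16 (filterByExpr, TMM, quasi-likelihood, Benjamini-Hochberg over all genes, threshold 0.05), with DESeq2 1.42.0 as an alternative. In simulated counts of cardiomyocytes edgeR recovered 100% of 2-fold changes by cell type, 70.5% by Ccna2 class and 15.6% by sex. Unchanged genes made up 11.7%, 4.73% and 6.80% of its calls in that order. In the simulation by cell type, cardiomyocytes differed from the other types in the changed genes alone, unlike the real types. Its 100% and 11.7% may therefore not hold for the real counts. Intervals cover counting error only. The 10 genes and the lists were chosen with earlier results of these data known. The 10 genes are named whatever their values; a pathway gene is named where it passed with 1 of the 5 highest or lowest differences of the list in a contrast, or gives a count. Promoters and motifs came from RefSeq and gene positions from GENCODE M21 (GRCm38).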

Additional observations from a re-analysis of the deposited data

Results flagged for a closer look

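Of 67 pairs of gene and type with at least 50 UMIs over the 5 libraries, 2 had 1 library far from the other 4, where chance gives about 1 in 20. Lats1 in cardiomyocytes was 56.8 CPM in the library labelled Tg female 2, the shallowest, and 64.7 to 66.5 CPM in the others. Vgll4 in macrophages was 199 CPM in the library labelled nTg female 1, from 273 UMIs, and 135 to 152 CPM in the others.

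Between cardiomyocyte nuclei with and without Ccna2, 2 genes moved in opposite directions in the female and the male libraries. Lats2 was higher with Ccna2 in both female libraries and lower in both male libraries, a difference of 0.47 on the log2(CPM + 1) scale between the mean changes (0.14 and -0.33). Yap1 was lower in both female and higher in both male libraries, a difference of -0.27 (-0.08 and 0.19). Neither difference between the sexes was tested.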

How the results depend on the processing

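The 60 calls by cell type became 58 with DESeq2, 59 with RLE scaling, 61 with library totals, 56 without a filter, 55 with doublets kept, 59 at Leiden resolution 0.5 and 51 to 57 with 1 library left out. They were 12 with at least 10 UMIs in every sum, where 16 pairs remained to be tested, and 27 with at least 500 genes and under 1% mitochondrial UMIs, where 56 remained. With macrophages left out 54 of 70 pairs passed. Calls that kept their direction and threshold were 47 of 60 with doublets kept, 40 of 52 without macrophages and 26 of 38 with the stricter filter. Directions turned, with macrophages left out, to -0.61 for Wwtr1 in cardiomyocyte nuclei, -0.41 for Wwtr1 in fibroblast nuclei, -0.34 for Tead1 in fibroblast nuclei, -0.22 for Yap1 in fibroblast nuclei, -0.43 for Amotl1 in fibroblast nuclei, -0.63 for Tead1 in endothelial nuclei, -0.48 for Yap1 in endothelial nuclei, -0.36 for Yap1 in lymphatic endothelial nuclei, -0.51 for Tead1 in pericyte nuclei and -0.085 for Yap1 in pericyte nuclei. With doublets kept they turned to -0.33 for Wwtr1 in cardiomyocyte nuclei, -0.24 for Wwtr1 in fibroblast nuclei, -0.068 for Tead1 in fibroblast nuclei, -0.15 for Amotl1 in fibroblast nuclei, -0.36 for Tead1 in endothelial nuclei, -0.12 for Yap1 in endothelial nuclei, -0.15 for Yap1 in lymphatic endothelial nuclei and 0.088 for Tead4 in macrophage nuclei, and with the stricter filter on nuclei to -0.13 for Yap1 in lymphatic endothelial nuclei and -0.12 for Vgll4 in macrophage nuclei. With library totals they turned to -0.43 for Wwtr1 in cardiomyocyte nuclei and -0.28 for Lats1 in cardiomyocyte nuclei. The cause was not tested for the doublets and the stricter filter. In all, 915 of 1022 single values kept their direction and side of the threshold, 64 lost the threshold, 21 gained it and 22 turned.

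By sex the count of 0 became 1 without Tg female replicate 1 and stayed at 0 in the other settings (range 0 to 1 with 1 library left out). The labels number the libraries 1 and 2 within each sex and do not say whether equal numbers are pairs. The correlation of deviations from the sex means was -0.0301 to 0.137 over the 8 types. With 2 libraries of each sex it cannot decide whether they are paired. The fit with the replicate number as a block called 0. By Ccna2 class the count of 0 became 1 without a filter on low counts (Vgll4). By genotype label the count of 0 became 1 with doublets kept and 14 with the stricter filter, which left 3 to 36 nuclei of the library labelled nTg female 1 in each type but cardiomyocytes. In that setting the Ccna2 classes had 3 libraries. Depth limits Tead3, Tead4 and Amotl2 most, with under 10 UMIs in several sums.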

Other observations

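Types with too few nuclei for a test are given as values, with no test. Mesothelial nuclei (105 in all) had Tead1 at 614 ± 58.8 CPM (SD, n = 5), with Yap1 at 121 ± 18.0 CPM, Amotl2 at 101 ± 66.8 CPM and Lats2 at 206 ± 95.5 CPM. Schwann cell nuclei (181) had Tead1 at 507 ± 123 CPM, near the level of cardiomyocytes.

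T or NK lymphocyte nuclei (125) had Yap1 at 27.1 ± 41.0 CPM and Tead1 at 55.2 ± 53.6 CPM, from 12 and 19 UMIs, beside Vgll4 at 211 ± 48.0 CPM and Lats1 at 78.8 ± 22.3 CPM. B lymphocyte nuclei (72) had Yap1 at 24.0 ± 39.8 CPM and Lats2 at 157 ± 87.3 CPM. The unnamed cluster of 133 nuclei led by Top2a, Hmmr and Mki67, genes of dividing cells, had Yap1 at 22.7 ± 0.706 CPM, Wwtr1 at 189 ± 38.2 CPM, Tead1 at 243 ± 40.5 CPM and Tead4 at 36.5 ± 18.9 CPM (SD over the 2 libraries with enough nuclei). Its macrophage and endothelial markers were both raised, and its nuclei were not split further.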
